A study of Mus musculus with 12 samples.

Results

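The adult globin genes and a small set of erythroid genes were followed in sorted bone marrow common lymphoid progenitors (CLPs). The 10 genes were fixed by name and found in the deposited expression table of 47643 genes, of which 14479 had a mean of at least 1 TPM, a length-corrected level whose sum is equal across libraries, and were tested. They are the α-globin genes Hba-a1 and Hba-a2, the β-globin genes Hbb-bs and Hbb-bt, the transcription factors Gata1 and Klf1, the erythropoietin receptor Epor, the carbonic anhydrases Car1 and Car2, and Alas2, the erythroid enzyme of the first step of heme synthesis. All 10 had a mean of at least 1 TPM, so all were tested. The table lists genes by Ensembl identifier. Those of Hbb-bs (ENSMUSG00000052305.5) and Hbb-bt (ENSMUSG00000073940.3) carry the older names Hbb-b1 and Hbb-b2, and each was matched to its present name by the first transcribed bases of the gene.

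The study asked what the lncRNA locus Firre does in blood cells. Each of 3 groups held 4 libraries of poly(A)-selected RNA, 1 library per male mouse: wild-type mice (WT), mice with a germline deletion of Firre (∆Firre, labelled KO), and mice with the deletion, a doxycycline-inducible Firre cDNA transgene and the rtTA activator, fed doxycycline (Firre rescue, labelled Rescue). The mice were adults, age-matched within the experiment. CLPs were sorted as lineage-negative cells low for Sca1 and cKit and positive for IL7Rα, and the lineage stain included Ter-119, an antibody to red cells. The rescue mice carry the same deletion as ∆Firre mice. Their transgene is driven by a tetracycline-responsive minimal CMV promoter through rtTA under the CAG promoter, ends in a β-globin polyadenylation signal, and expresses a cDNA rather than the locus. No group of doxycycline-fed mice without the transgene was analysed here.

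Firre itself was listed at 0 in all 4 ∆Firre libraries, at 25.2 to 31.6 TPM in WT and at 59.9 to 174 TPM in the rescue libraries, which matched the labels. From 10846564 to 17910645 reads were recovered per WT library, 14157168 to 17309185 per ∆Firre library and 25388637 to 32158935 per rescue library. The numbers in the library titles, called library numbers here, form a range of their own in the rescue group. The labels do not say what these numbers stand for. Genotype, doxycycline and any batch that follows the numbers cannot be told apart for that group. The CLP markers Dntt, Flt3 and Il7r were abundant in every group, with Il7r at 424 ± 31.2 TPM (SD, n = 4) in WT, 423 ± 74.8 in ∆Firre and 404 ± 41.1 in the rescue libraries. In the rescue libraries 4 of 15 CLP markers passed the test higher and 3 lower, both against ∆Firre and against WT, with Ly6d at 1258 TPM beside 485 and 528 TPM. The summed level of these markers was 7053 to 9752 TPM in WT, 8066 to 8461 TPM in ∆Firre and 9652 to 10656 TPM in the rescue libraries. Of 10 plasma cell markers, 2 were called higher and 7 lower in rescue against ∆Firre, and 1 higher and 6 lower against WT, with Igkc at 11259, 25643 and 1212 TPM in WT, ∆Firre and rescue. Of 10 neutrophil granule markers 2 and 3 were lower in the same comparisons, and of 4 genes of the lineage stain 1, Itgam, was lower in both. Over all genes tested, 8.58% were called higher and 19.3% lower against ∆Firre, and 4.82% higher and 19.4% lower against WT. Under the rescalings of TPM described below, 6 and 5 of the 7 CLP marker calls held against ∆Firre and WT, and all 9 and 4 of the 7 plasma cell marker calls. Both neutrophil marker calls against ∆Firre and 2 of the 3 against WT held.

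Hemoglobin is a tetramer of α- and β-globin chains around heme, and its genes are the most active genes of a maturing red cell. GATA1 binds GATA letters and KLF1 binds CACCC boxes in erythroid control regions, and erythropoietin acts through its receptor and JAK2 to keep erythroid progenitors alive. CLPs give rise to lymphocytes and are not a site of hemoglobin synthesis. GATA1 is shared by red cells, megakaryocytes, eosinophils, mast cells and basophils, whereas KLF1 and ALAS2 are largely confined to the erythroid line. In bulk libraries, fewer cells of a type and less RNA per cell cannot be told apart.

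On GRCm38, the build the reads were mapped to, RefSeq places Hba-a1 at chr11:32283672-32284486 and Hba-a2 at chr11:32296492-32297310. Hbb-bs lies at chr7:103826523-103827928 and Hbb-bt at chr7:103812524-103813923, both on the minus strand. Gata1 (chrX:7959260-7976663) and Alas2 (chrX:150547417-150570622) are on the X chromosome, as is Firre. Klf1 lies at chr8:84901982-84905291, Epor at chr9:21958897-21963576, and the neighbouring genes Car1 and Car2 at chr3:14766214-14808365 and chr3:14886269-14900770.

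The coding sequences of Hba-a1 and Hba-a2 differ at 1 of 429 bases, and those of Hbb-bs and Hbb-bt at 1 of 444 bases in the transcripts of the Gencode vM1 release. Of all 50-base windows of the coding sequence, 87.1% are shared within the α pair and 92.9% within the β pair. How reads that fit both copies were counted is not given in the sources used here, so the division of reads within each pair is uncertain.

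The 110 bases before the start site of the RefSeq promoter table are shown for the globin genes and for Gata1, the genes on which the comparisons below turn. For 7 of the 8 genes in that table the start site is the 5′ end of the gene span given above. For Gata1 it lies inside the span, at position 7967910, 8753 bases from the 5′ end, so the stretch shown precedes an internal start site. Capitals mark matches on either strand to the CACCC box, the CCAAT box, the letters TATAA and the GATA motif, taken as GATA with A or T before it and A or G after it. The ATTGG match of Hbb-bt at -80 adjoins its CCAAT match at -75, and a further ATTGG match lies at -36.
Hba-a1 (GRCm38.p6 chr11:32283562-32283671, plus strand): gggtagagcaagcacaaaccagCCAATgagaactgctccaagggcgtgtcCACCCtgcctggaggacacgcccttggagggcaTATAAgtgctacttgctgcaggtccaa
Hba-a2 (chr11:32296382-32296491, plus strand): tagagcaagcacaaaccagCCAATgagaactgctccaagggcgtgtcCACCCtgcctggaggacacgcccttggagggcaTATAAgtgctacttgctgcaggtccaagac
Hbb-bs (chr7:103827929-103828038, minus strand): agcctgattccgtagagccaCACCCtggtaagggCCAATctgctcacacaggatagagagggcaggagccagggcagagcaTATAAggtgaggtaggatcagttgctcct
Hbb-bt (chr7:103813924-103814033, minus strand): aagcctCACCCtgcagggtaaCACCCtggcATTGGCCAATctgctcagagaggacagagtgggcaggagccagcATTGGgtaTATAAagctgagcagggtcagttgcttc
Gata1 (chrX:7967911-7968020, minus strand): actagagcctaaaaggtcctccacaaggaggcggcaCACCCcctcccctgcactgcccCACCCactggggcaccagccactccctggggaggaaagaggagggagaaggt

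All 4 globin stretches hold a CACCC box, a CCAAT box and the letters TATAA. The CCAAT box comes first in the α genes (at -88 and -91 from the start site) and the CACCC box in the β genes, and TATAA lies at -27 to -30 in all 4. The α promoters are nearly the same sequence, with 247 of the 250 bases before the start site shared in 1 run offset by 3 bases, whereas the longest run shared by the β promoters is 14 bases. In the 250 bases before the start, GATA letters were found once in Hba-a1 (at -183), Hba-a2 (at -186), Hbb-bs (at -210), Klf1 (at -80), Epor (at -54) and Alas2 (at -86). None of these letters were in that window of Hbb-bt or in the window before the internal start site of Gata1. Over all 32851 promoters of the RefSeq table, 26.5% hold the GATA letters, 52.0% CACCC, 33.8% CCAAT and 22.8% TATAA in a window of the same length. Promoters were found in the table for 8 of the 10 genes, all but Car1 and Car2.

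By mean TPM over the 12 libraries, a scale that corrects for gene length, the genes ran from Car2 (117 ± 27.0, SD) through Hbb-bs (87.8 ± 57.5), Car1 (43.0 ± 27.9), Hbb-bt (33.9 ± 27.6), Hba-a2 (20.3 ± 15.7), Hba-a1 (19.6 ± 14.3), Klf1 (6.02 ± 4.69), Gata1 (5.07 ± 3.21) and Alas2 (2.34 ± 1.65) to Epor (1.22 ± 1.71). Each neighbouring pair in this order differed by less than the larger of its SDs. Car2 was the steadiest, with a 1.94-fold range between its lowest and highest library. Epor had the widest range, from 0 to 6.34 TPM and 34.0-fold among the 11 libraries above 0. Hba-a2 ranged over 20.5-fold, and Hbb-bs, Hbb-bt and Hba-a1 each ranged over 15.6-fold or more. The globins made up 0.00273% to 0.0330% of all TPM.

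**Figure D1:**
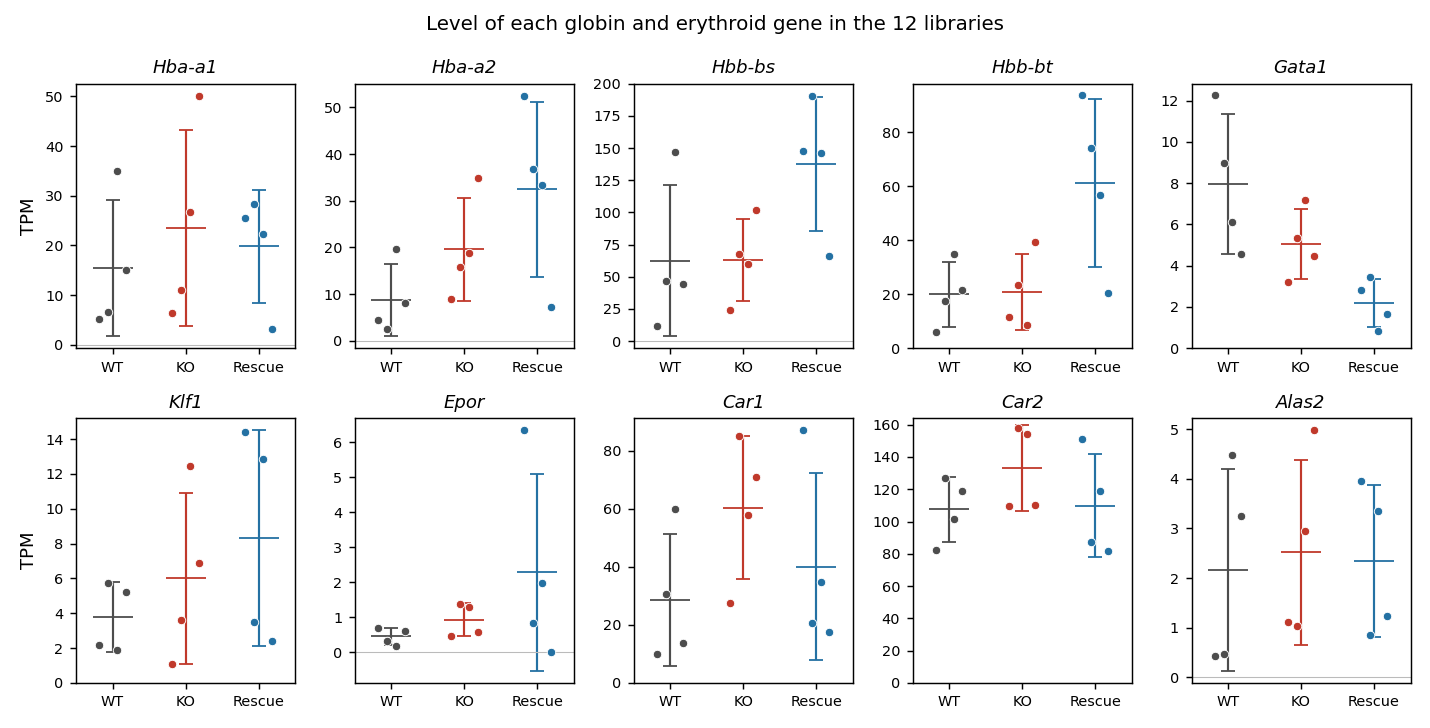
TPM of each of the 10 genes (vertical axis, linear, a scale for each panel) in the 4 WT, 4 ∆Firre (KO) and 4 rescue libraries. Points are libraries, horizontal marks the means and bars the SD. Gata1 is the only gene whose WT libraries (4.55 TPM and above) all lie over its rescue libraries (3.46 TPM and below).

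Between ∆Firre and WT, none of the 10 genes passed the test, limma on log2(TPM + 1) with Benjamini-Hochberg adjustment over all genes tested and a threshold of 0.1. The background was as low: 0.0138% of all genes were called higher and 0.00691% lower, 3 genes in all. One gene, Car1, had an unadjusted p under 0.05, and limma-voom on the recovered reads also called none. In 9 of the 10 the fitted difference was above 0, with a median of 0.34 on the log2 scale beside -0.06 for all genes tested. Without WT library 6, Hbb-bs, Hbb-bt and Alas2 turned below 0 (-0.26, -0.40 and -0.03), and the median was lower. The groups overlapped in all 10, while 5.33% of all genes had groups that did not overlap. The limma test sets each difference against the spread between libraries of single mice, estimated from all 3 groups together.

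Between the rescue and ∆Firre libraries, Hbb-bt rose and Gata1 fell. That is 1 gene called higher and 1 lower of 10, where 8.58% of all genes were called higher and 19.3% lower. No gene of the 10 had groups that did not overlap, against 21.9% of all genes. The median difference was 0.19 for the 10 and -0.16 for all genes. Leaving out ∆Firre library 8 turned the median of the 10 negative, between -0.24 (Alas2) and -0.05 (Klf1). Between the rescue and WT libraries, Hba-a2 and Hbb-bt rose and Gata1 fell. Over all genes 4.82% were called higher and 19.4% lower. Gata1 was the 1 gene of 10 with groups that did not overlap, against 18% of all genes, and the medians were 0.64 for the 10 and -0.21 for all genes. Leaving out WT library 6 lowered the median of the 10, to between 0.14 (Car1) and 0.61 (Klf1). The comparisons share libraries and are not independent of each other.

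**Figure D2:**
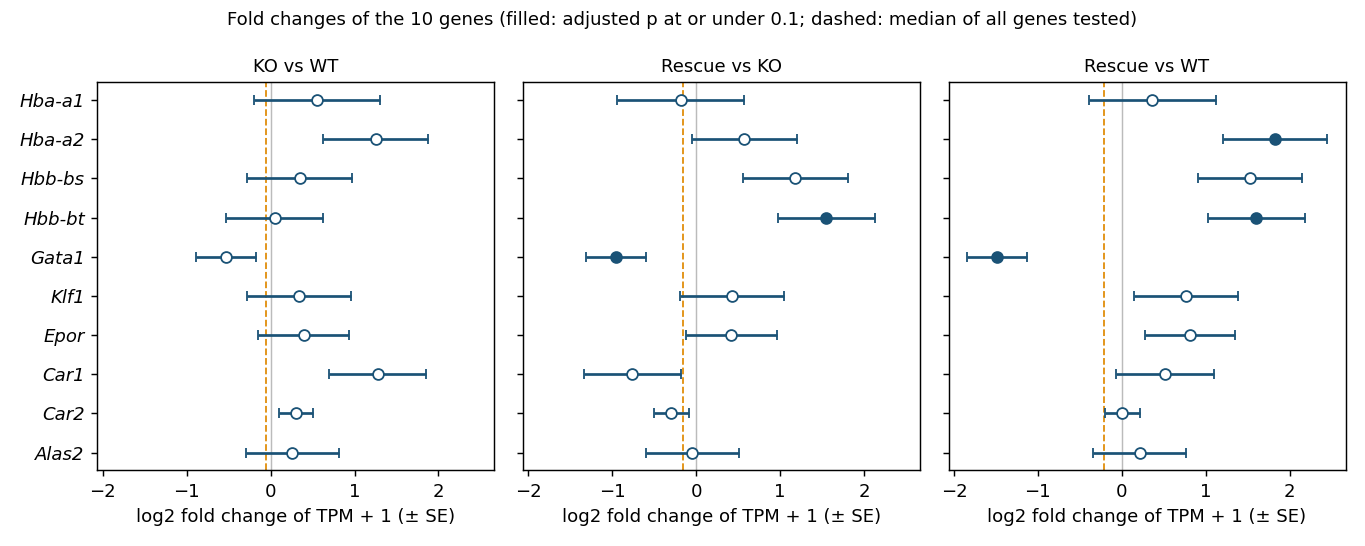
Log2 fold change of TPM + 1 (horizontal axis, with SE) of each gene in the 3 comparisons. Filled points passed an adjusted p of 0.1, and the dashed line is the median of all genes tested. Gata1 lies at -0.96 in rescue against ∆Firre and at -1.49 in rescue against WT, and Hbb-bt at 1.55 and 1.6.

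Hbb-bt, an adult β-globin gene, was at 5.98, 17.4, 35 and 21.3 TPM in WT libraries 6, 8, 10 and 11. It was at 11.4, 23.5, 8.68 and 39.4 TPM in ∆Firre libraries 8, 9, 11 and 12, and at 93.5, 74.1, 56.7 and 20.4 TPM in rescue libraries 1, 2, 3 and 4. The first 3 rescue libraries lay above all others, and rescue library 4 lay within the range of WT and ∆Firre. The difference of rescue from ∆Firre was 1.55 ± 0.58 (SE) on the log2 scale with a limma adjusted p of 0.0789. From WT it was 1.6 ± 0.58 with an adjusted p of 0.0772, and ∆Firre and WT differed by 0.05 ± 0.58. Either call was lost in 6 of the 8 fits that left out 1 library. The call against ∆Firre held without ∆Firre library 12 or rescue library 4 and was lost without ∆Firre library 8, 9 or 11 or rescue library 1, 2 or 3, and the call against WT held without WT library 10 or rescue library 4 only.

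Hbb-bs, the more abundant β gene, was also low in rescue library 4 and high in the other rescue libraries. Its values were 11.7, 46.5, 147 and 44.6 TPM in WT, 24.0, 67.6, 59.6 and 102 TPM in ∆Firre, and 148, 191, 146 and 66.3 TPM in the rescue libraries. WT library 10 reached the level of the rescue libraries, and rescue library 4 that of ∆Firre. The rescue libraries differed by 1.18 ± 0.63 (limma adjusted p = 0.205) from ∆Firre and by 1.53 ± 0.63 (adjusted p = 0.114) from WT, so neither passed the test. Without WT library 10 the difference from WT was 2.1 with an adjusted p of 0.0344, and without WT library 6 it was 0.92 with an adjusted p of 0.271.

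Hba-a2 was at 4.42, 2.56, 19.7 and 8.15 TPM in WT, at 8.92, 15.7, 18.9 and 34.8 TPM in ∆Firre, and at 52.5, 36.8, 33.3 and 7.32 TPM in the rescue libraries. The rescue libraries other than library 4 exceeded all WT libraries, and the ∆Firre libraries overlapped with both groups. The rescue libraries were higher than WT by 1.83 ± 0.63 on the log2 scale (limma adjusted p = 0.0640), and differed from ∆Firre by 0.57 ± 0.63 (adjusted p = 0.554). The call against WT was lost in 6 of 8 fits without 1 library, namely WT library 6, 8 or 11 or rescue library 1, 2 or 3. WT library 8 holds only 6 reads of this gene.

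Hba-a1, the near copy of Hba-a2, passed no test. It was at 5.18, 6.65, 34.9 and 15.0 TPM in WT, 6.31, 11.1, 26.7 and 50.1 TPM in ∆Firre, and 25.5, 28.3, 22.3 and 3.14 TPM in the rescue libraries. The highest value was in ∆Firre library 12 and the lowest in rescue library 4. The rescue libraries differed by -0.19 ± 0.75 from ∆Firre and by 0.37 ± 0.75 from WT. The ratio of Hba-a2 to Hba-a1 was 0.852, 0.384, 0.565 and 0.543 in WT, 1.41, 1.42, 0.708 and 0.694 in ∆Firre, and 2.06, 1.30, 1.49 and 2.33 in the rescue libraries. All rescue ratios thus lay above all WT ratios, a description chosen after the values were seen and subject to the uncertain division of reads above. The ratio of Hbb-bt to Hbb-bs overlapped between all groups, from 0.146 to 0.634.

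Summed over both α and both β genes, globin RNA was 27.3, 73.1, 237 and 89.1 TPM in WT, 50.6, 118, 114 and 226 TPM in ∆Firre and 319, 330.0, 258 and 97.1 TPM in the rescue libraries. β RNA exceeded α RNA in every library, with a ratio of 1.5 to 8.29. Rescue library 4, lowest of its group for all 4 globins, had the highest Firre level (174 TPM), and rescue library 1, with the highest Hbb-bt and Hba-a2, the lowest (59.9 TPM). Libraries 2 and 3 held 135 and 63.0 TPM of Firre. The part of the transgene's β-globin sequence in the β-globin counts was not tested.

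**Figure D3:**
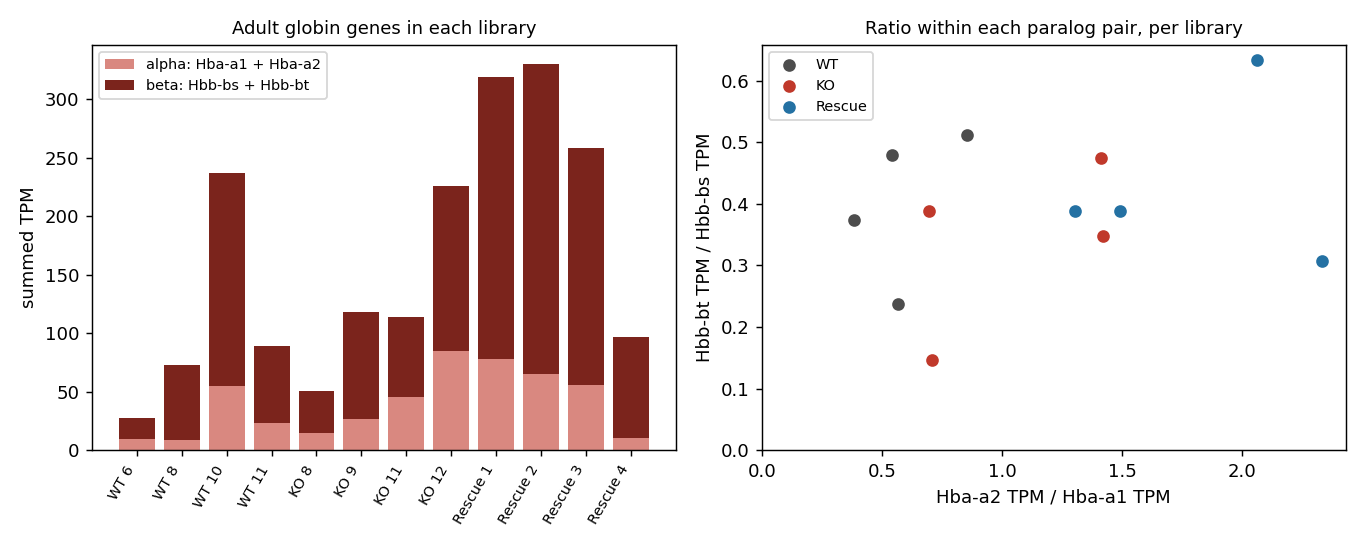
Left, summed TPM of the α genes (light) and β genes (dark) stacked for each library, from 27.3 TPM in WT 6 to 330.0 TPM in Rescue 2. Right, the ratio within the α pair (horizontal) and within the β pair (vertical) for each library, where the rescue libraries lie at an α ratio of 1.30 or above and WT at 0.852 or below.

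The other globin genes were next to absent. None of the 10 matched genes of the embryonic, θ, myoglobin, neuroglobin and cytoglobin kinds reached a mean of 1 TPM over the 12 libraries. Hbb-y, Hbb-bh1, Hbb-bh2, Hbb-bh0, Hbq1b and Mb were at 0 in all 12 libraries. Embryonic Hba-x was above 0 in 1 rescue library (0.478 TPM), and Hbq1a in 1 ∆Firre library (4.56 TPM). Neuroglobin and cytoglobin reached at most 0.505 and 0.676 TPM.

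Gata1 was at 12.3, 8.98, 6.09 and 4.55 TPM in WT libraries 6, 8, 10 and 11. It was at 3.20, 5.33, 7.19 and 4.47 TPM in ∆Firre, and at 2.83, 3.46, 0.853 and 1.65 TPM in the rescue libraries, which rest on 63, 94, 22 and 38 reads. Every rescue library lay below every WT library, and the rescue and ∆Firre groups overlapped by 1 library each. Gata1 fell by 1.49 ± 0.36 on the log2 scale from WT to rescue, with a limma adjusted p of 0.0161. Set off from the median of all genes, the difference was -1.28. This call held under all 22 alternatives, with differences of -1.88 to -0.83 and adjusted p-values of 0.0149 to 0.0832, among them each of the 8 libraries left out. From ∆Firre to rescue Gata1 fell by 0.96 ± 0.36 (adjusted p = 0.0813), and this call was lost in 13 of 22 alternatives, median ratio and quantile scaling among them. Without ∆Firre library 9, 11 or 12 or rescue library 3 or 4 the adjusted p was 0.130 to 0.1975. ∆Firre and WT differed by -0.53 ± 0.36 (adjusted p = 0.967).

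Markers of other cells that use GATA1 were read beside this result. Of 16 basophil and mast cell markers 12 were tested, and all 12 fell in the rescue libraries against either group. Over all genes, 19.3% were called lower against ∆Firre and 19.4% against WT. The filter takes the mean over 12 libraries, so Ms4a2 (0.03 TPM in rescue), Il4 and Il6 were tested only through WT and ∆Firre. The count is partly set by that filter. The summed level of the 16 markers was 1116 to 9445 TPM in WT, 3011 to 4460 TPM in ∆Firre and 66.2 to 144 TPM in the rescue libraries. Prss34, a basophil protease, averaged 1656 ± 1620 TPM across WT, 1530 ± 273 TPM across ∆Firre and 9.15 ± 11.5 TPM across rescue libraries, and Mcpt8, Fcer1a and Cpa3 stood at 13.6, 1.53 and 77.8 TPM in rescue. Il4 and Il6 were at 0 in every rescue library, and Cma1, Mcpt4 and Mrgprb1 in every library of all groups. WT library 6 had both the highest Gata1 and the highest sum of these markers, and rescue library 2 the highest of both in its group (3.46 and 144 TPM). Other libraries went the other way. WT library 8, at 8.98 TPM of Gata1, had the lowest sum of WT (1116 TPM). ∆Firre library 8 had the lowest Gata1 of its group (3.20 TPM) and its highest sum (4460 TPM).

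Of 13 megakaryocyte markers 7 were tested. In the rescue libraries 3 fell against ∆Firre and 6 against WT, where 19.3% and 19.4% of all genes were called lower. Ppbp and Treml1 passed the filter only through WT and ∆Firre. The summed level of the 13 markers was 99.9 to 308 TPM in WT, 73.5 to 118 TPM in ∆Firre and 9.11 to 47.5 TPM in rescue. Ppbp, a platelet chemokine, was at 54.6 ± 33.7 TPM in WT and 0.811 ± 1.56 in rescue, Itga2b at 43.0 ± 33.1 and 1.02 ± 0.61 TPM, and Treml1 at 0 in every rescue library. Under the rescalings of TPM described below, all 3 calls against ∆Firre held, and 3 of the 6 against WT, those of Pf4, Gp5 and Treml1, were lost. Itgb3 and Pf4 stood at 7.16 and 6.95 TPM in rescue, beside 25.2 and 24.7 TPM in WT. Of 10 eosinophil markers, 3 fell in rescue against ∆Firre and 2 against WT, beside 19.3% and 19.4% of all genes, with sums of 66.4 to 265, 105 to 253 and 7.40 to 225 TPM in WT, ∆Firre and rescue. Only the call of Alox15 held in each comparison under both rescalings. Alox15 was at 0 in every rescue library and at 54.8 TPM in WT. Prg2 averaged 71.8 TPM in rescue, 98.6 TPM in ∆Firre and 48.6 TPM in WT, with a fitted log2 difference of rescue from WT of -1.05 ± 1.31 and no call. The sum of the eosinophil markers was 225 and 207 TPM in rescue libraries 1 and 2 and 7.40 and 13.0 TPM in libraries 3 and 4. Over the list, 5 of the 10 differences from WT were above 0, with a median of 0.06. The part of these cells in the Gata1 result was not tested.

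**Figure D4:**
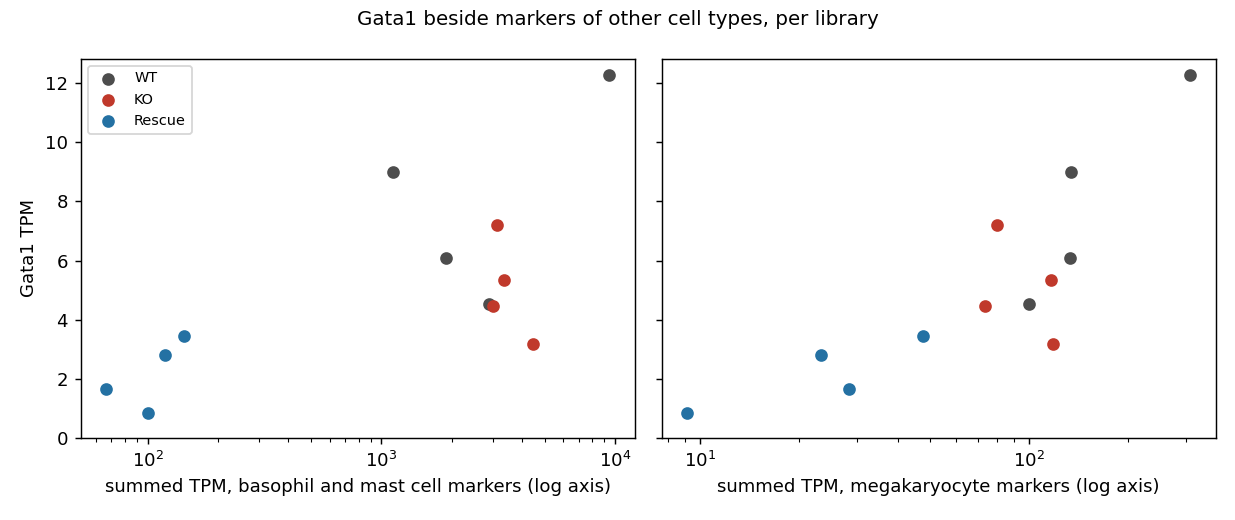
Gata1 TPM (vertical, linear) against the summed TPM of basophil and mast cell markers (left) and megakaryocyte markers (right), both on log axes, 1 point per library. The rescue libraries hold at most 144 TPM of the basophil and mast cell markers, where WT and ∆Firre hold 1116 TPM or more.

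Klf1, the CACCC-box factor that drives adult β-globin, was at 2.19, 5.75, 1.89 and 5.24 TPM in WT, 1.07, 3.59, 12.5 and 6.87 TPM in ∆Firre, and 14.4, 3.51, 12.9 and 2.42 TPM in the rescue libraries. Rescue libraries 1 and 3 were high and the others were within the WT range. The differences were 0.34 ± 0.62, 0.43 ± 0.62 and 0.77 ± 0.62 for ∆Firre against WT, rescue against ∆Firre and rescue against WT, and none passed the test (limma adjusted p = 1, 0.666 and 0.424).

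Epor had the lowest mean over all 12 libraries, although in the rescue group it averaged 2.28 TPM beside 2.20 TPM for Gata1. It was at 0.690, 0.311, 0.187 and 0.594 TPM in WT, which rest on 6, 2, 2 and 5 reads. It was at 0.449, 1.37, 1.29 and 0.586 TPM in ∆Firre and at 6.34, 0.834, 1.96 and 0 TPM in the rescue libraries. Its highest and its lowest value were both in the rescue group, in libraries 1 and 4. Rescue library 4 held 26673255 recovered reads, and its count of 0 allows up to 3 reads of Epor by counting error. The rescue libraries differed from WT by 0.81 ± 0.54 (limma adjusted p = 0.329), and by 0.30 without rescue library 1 and 1.26 without rescue library 4.

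Alas2 was at 0.438, 0.473, 4.48 and 3.26 TPM in WT, 1.11, 1.04, 2.95 and 4.98 TPM in ∆Firre, and 3.96, 0.859, 3.34 and 1.24 TPM in the rescue libraries. Each group had a low and a high pair, and the differences between groups were -0.05 to 0.26 on the log2 scale, with an SE of 0.55.

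Car1, an early erythroid carbonic anhydrase, was at 9.78, 30.5, 59.8 and 13.8 TPM in WT, 27.6, 85.1, 57.9 and 71.1 TPM in ∆Firre, and 87.1, 20.7, 34.8 and 17.6 TPM in the rescue libraries. The ∆Firre libraries other than library 8 were high, as were WT library 10 and rescue library 1. The difference of ∆Firre from WT, 1.28 ± 0.58, had an unadjusted limma p of 0.0467 and an adjusted p of 0.929. Car2 had the highest mean over all 12 libraries, although Hbb-bs was higher in the rescue group (138 beside 109.8 TPM). Car2 was at 82.2, 127, 102 and 119 TPM in WT, 109.7, 158, 154 and 110.1 TPM in ∆Firre, and 151, 87.5, 119 and 81.7 TPM in the rescue libraries. Its groups overlapped, and the differences were 0.30 ± 0.21, -0.30 ± 0.21 and 0.01 ± 0.21 in the 3 comparisons.

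Similar patterns were sought among the tested genes outside the 10, which were not compared with each other. The nearest genes had the smallest root mean square gap on log2(TPM + 1), each gene set off from its mean over 12 libraries. For Car1 they were Rhag (0.43), Ermap (0.47) and Pklr (0.60), which encode a red cell Rh complex protein, an erythroid membrane protein and the red cell pyruvate kinase. For Klf1 they were Amdhd1 (0.49), Ces2g (0.57) and Slc4a1 (0.57), the last being band 3 of the red cell membrane. For Gata1 they were Trim30b (0.30), Creb3l2 (0.36) and Ms4a6c (0.37), and for Epor Comtd1 (0.35), Pnck (0.42) and 1810021B22Rik (0.43). Of the 10 genes, the globins had the widest gaps to the nearest gene outside the 10. These gaps were 0.65 (Gm13004) for Hba-a1, 0.59 (Ephx1) for Hba-a2, 0.67 (Gm13004) for Hbb-bs and 0.70 for Hbb-bt. The globins' own SDs were 1.15 to 1.23. Car2 was nearest to Zfp235 (0.19) and Alas2 to Zfp786 (0.44).

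The rest of the erythroid pathway was read from 6 lists with 135 matched genes outside the 10, of which 111 were tested. None was called between ∆Firre and WT, where 4 had an unadjusted p under 0.05 and limma-voom called 0. In rescue against ∆Firre 14 passed the test higher and 21 lower, 31.5% of those tested beside 27.9% of all genes. In rescue against WT 5 were higher and 23 lower, 25.2% beside 24.3% of all genes, so both shares lay near the background. Directions depended on scaling: when libraries were rescaled by their median ratio, the counts were 20 higher and 17 lower against ∆Firre, and 14 higher and 12 lower against WT. With quantile normalization they were 24 and 17, and 12 and 14. Of the calls, 29 of 35 and 16 of 28 held under both rescalings. Over all genes called, rescaling moved the share called higher from 30.7% to 50.5% against ∆Firre and from 19.9% to 51.3% against WT.

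The red cell membrane and maturation genes had the lowest share of calls among the lists with tested genes, 6.45% against ∆Firre and 3.23% against WT. Of 31 tested, Prdx2, a red cell peroxiredoxin, was the 1 gene called higher in rescue against ∆Firre (178 against 143 TPM) and Bnip3l, which clears mitochondria, the 1 called lower (103 against 132 TPM). Against WT only Prdx2 was called. Their medians were -0.10 and 0.16. Slc4a1 was at 2.86 ± 2.15, 4.15 ± 2.18 and 7.60 ± 3.38 TPM across WT, ∆Firre and rescue libraries (limma adjusted p = 0.106 for rescue against WT). The summed level of the list was 766 to 853 TPM in WT, 758 to 892 TPM in ∆Firre and 711 to 959 TPM in rescue.

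Of 25 heme synthesis and iron genes, 5 were higher and 1 lower in rescue against ∆Firre. Steap3, an iron reductase of erythroid endosomes, rose by 0.74 ± 0.22 on the log2 scale, the iron-sulfur gene Glrx5 by 0.66 ± 0.20, the ferritin light chain Ftl1 by 0.58 ± 0.15 and Alad, the second enzyme of heme synthesis, by 0.55 ± 0.17 (limma adjusted p = 0.0169 to 0.0379). The transferrin receptor Tfrc was at 272 and 299 TPM and Snx3 at 249 and 226 TPM, with no call. Against WT, Flvcr1, a heme exporter, fell by 0.75 ± 0.24, and its call was lost under either rescaling. The ferritin heavy chain Fth1 was called higher by 0.28 ± 0.07, but turned to -0.10 under quantile normalization. Ftl1 was at 504 and 415 TPM in rescue and WT, with no call.

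Among 24 erythroid transcription factors tested, 4 were higher and 7 lower in rescue against ∆Firre, and 3 higher and 9 lower against WT. All 11 calls against ∆Firre and 9 of the 12 against WT held under the rescalings, and Nfe2, Etv6 and Foxo3 lost theirs. Gata2, which precedes GATA1 in erythroid progenitors and also serves basophils, was at 178, 20.8, 34.8 and 37.9 TPM in WT, 28.9 to 48.6 TPM in ∆Firre and 0, 0.565, 0 and 0.413 TPM in rescue. It fell by 5.04 ± 0.50 from ∆Firre and fell by 5.31 ± 0.50 from WT (limma adjusted p = 8.19e-05 and 9.15e-05), and it is also 1 of the basophil and mast cell markers. Zfpm1, the GATA1 partner FOG1, rose by 1.64 ± 0.29 and 1.04 ± 0.29. Tcf3 and Lyl1 rose by 1.30 ± 0.15 and 1.01 ± 0.17 from ∆Firre, and Tal1 and Mafg fell by 1.01 ± 0.19 and 1.22 ± 0.16 from WT. Tcf3, which encodes E2A, is also a CLP marker here. Myb and Ikzf1, the most abundant of the list, stood at 653 and 427 TPM in rescue, 668 and 422 TPM in ∆Firre and 697 and 459 TPM in WT, with no call.

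Of 26 erythropoietin receptor signalling genes tested, 4 were higher and 9 lower in rescue against ∆Firre, and 10 lower and none higher against WT. Under the rescalings 10 of the 13 calls against ∆Firre and 5 of the 10 against WT held, and Pim1, Lyn, Shc1, Pik3r1 and Kit lost theirs against WT. Csf2rb, the receptor chain shared by IL-3, IL-5 and GM-CSF, fell by 2.13 ± 0.32 and 2.30 ± 0.32 from ∆Firre and WT. The kinase gene Jak2 fell by 1.23 ± 0.20 and 1.29 ± 0.20, the target gene Osm by 0.94 ± 0.21 and 1.11 ± 0.21, and the adaptor gene Gab2 by 0.83 ± 0.20 and 0.98 ± 0.20, with limma adjusted p-values of 0.000913 to 0.0150. Ptpn6, the phosphatase that ends the signal, was at 235 TPM in rescue and 236 TPM in ∆Firre, with no call. Of 5 other carbonic anhydrases tested, Car9, Car12 and Car3 fell from ∆Firre, by 1.5 ± 0.47, 1.39 ± 0.30 and 1.13 ± 0.31, and the call of Car3 was lost under quantile normalization. Car12 and Car9 also fell from WT, by 1.25 ± 0.30 and 1.39 ± 0.47, of which Car9 lost its call under either rescaling. Car13 was at 6.61 TPM in rescue and 3.5 TPM in ∆Firre, with no call.

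**Figure D5:**
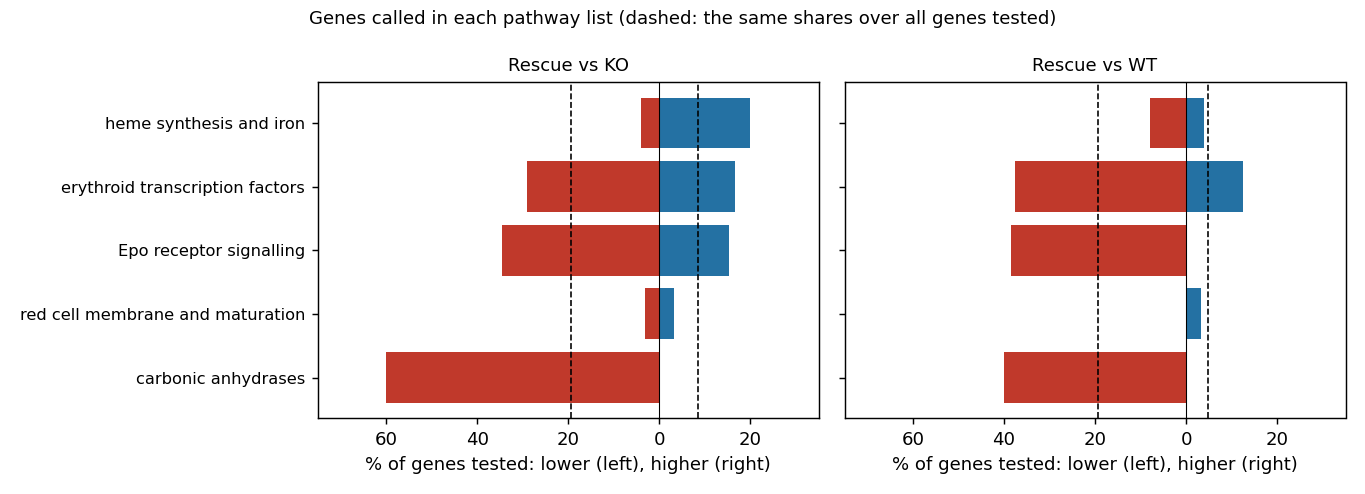
Share of the genes tested in each list that passed the test lower (left of 0) or higher (right of 0) in rescue against ∆Firre and against WT, with the same shares over all genes as dashed lines (19.3% and 8.58%, and 19.4% and 4.82%). The red cell membrane list lies under the dashed lines on both sides in both panels, and the other globin list is not drawn since none of its genes was tested.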

How the data were processed

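RNA of sorted CLPs from 12 male mice was sequenced paired-end after poly(A) selection with a CATS RNA-seq kit. The submitters' processing notes name cutadapt, TopHat2 2.1.1 and featureCounts. Per the study's methods, the authors aligned adapter-trimmed reads to mm10 with TopHat2 and counted Gencode vM9 genes with featureCounts; strand and multi-mapping settings are not given in the sources used here. The deposited unit is TPM per gene and library, which sums to the same total in each library, so that a change in abundant genes shifts all others. Whole reads were recovered from the steps of the TPM values: 99.99% of values above 0 were whole within 0.01 reads. These recovered reads give the depths and cover counting error only.

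The 3 groups were fitted in one limma model (limma 3.58.1, R 4.3.3, trend) on log2(TPM + 1) for genes with a mean of at least 1 TPM, two-sided, with Benjamini-Hochberg adjustment over 14479 genes and a call at an adjusted p of 0.1 or less. Fold changes on this scale understate changes of low genes. The model was tested on simulated data. Summaries used Python 3.11.15 with pandas 2.3.3 and numpy 2.4.6, and figures matplotlib 3.10.9.

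The members and lists were chosen with earlier results of these data known. Of 224 listed genes 222 were matched by identifier, 11 through a synonym. Named were all members and, per list and comparison, up to 4 called genes with the largest change and up to 2 uncalled genes with the highest TPM; per marker list, the 4 most abundant genes; and per member, the 3 nearest patterns. Some of these are given as counts. Genes given as listed at 0 were named beyond that rule, after their values were seen. Alternatives were the pseudocount, filter, scaling, fit options, threshold, leaving out each library, a replicate block and a range-of-library-number term. Limma-voom on the recovered reads and a correction for GC content (known for 80.9% of genes tested) were added after seeing the data. Promoter sequences and positions are from RefSeq on GRCm38.p6. Values of some list genes are not reported here.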

Additional observations from a re-analysis of the deposited data

Results flagged for a closer look

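Hba-a1 in the rescue group was marked because 1 of its 4 libraries lay far from the others. Library 4 was at 3.14 TPM, while the other 3 lay between 22.3 and 28.3 TPM, and its gap to the nearest library was 0.884 of the group's range on log2(TPM + 1), above Dixon's 95% critical value for 4 samples. Of 30 groups checked (10 genes in 3 groups) 1 was marked, and chance marks about 1 in 20. The same library was lowest of its group for the other globins and for Klf1, Epor, Car1 and Car2, though not for Gata1 or Alas2. Its Firre level was the highest (174 TPM). Without it, the differences of rescue from WT were 2.40 for Hba-a2, 2.05 for Hbb-bt and 1.84 for Hbb-bs (limma adjusted p = 0.0190, 0.0373 and 0.0958), beside 1.83, 1.6 and 1.53 with it. Hba-a1 itself differed from WT by 1.03 without this library (limma adjusted p = 0.345), with no call, beside 0.37 with it.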

How the results depend on the processing

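Between ∆Firre and WT no alternative called any of the 10 genes or any pathway gene. With 2 replicate numbers shared by these groups (correlations of deviations -0.03 and -0.04, and no pairing in the labels), the fit with a replicate block called 0 of the 10 genes and 0 pathway genes and gave -0.26 for Hbb-bs, -0.89 for Hbb-bt and -0.30 for Klf1, against differences above 0 without the block. The range of library numbers as a term also called 0.

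Of the 10 genes, 2 were called in rescue against ∆Firre. This became 1 with a pseudocount of 5, a filter at 5 TPM, median ratio or quantile scaling, TPM without Firre, ribosomal, mitochondrial and immunoglobulin genes, TPM without the 4 globins (which are then not counted), only the 2 groups in the fit, no trend or a robust trend. It became 0 with no filter, a threshold of 0.05 or limma-voom, and 0 to 1 with 1 library left out. Against WT 3 were called, 1 with no filter, without the 4 globins, with only the 2 groups or at 0.05, and 1 to 4 with 1 library left out. No trend and a robust trend gave 2, without Hbb-bt (limma adjusted p = 0.109 and 0.118). Limma-voom also gave 2, Gata1 and Hbb-bs (adjusted p = 0.0965), without Hba-a2 (0.184) and Hbb-bt (0.145), and the GC correction gave 4, with Hbb-bs added (0.0813). Pathway counts stayed within 1.5 times, at 26 to 41 for 35 and 20 to 33 for 28. Over all genes, limma-voom called 0, 4313 and 2887 in the 3 comparisons and the GC correction 0, 2461 and 1989.

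Differences near 0 changed sign. Against ∆Firre, Alas2 was at 0.0267 with median ratio scaling, 0.53 with quantile scaling and 0.0149 with GC correction, Hba-a1 at 0.0085 with quantile scaling, and Epor at -0.16 with limma-voom. With 1 library left out, ∆Firre against WT ranged from -0.26 to 0.92 for Hbb-bs, -0.40 to 0.38 for Hbb-bt, -0.0439 to 0.61 for Alas2 and -0.077 to 0.82 for Klf1. Rescue against ∆Firre ranged from -0.0522 to 0.85 for Klf1, -0.64 to 0.48 for Hba-a1, -0.28 to 0.26 for Alas2 and -0.10 to 0.86 for Epor, and rescue against WT from -0.16 to 0.13 for Car2 and -0.0794 to 0.56 for Alas2. The cause was not tested. Some values rest on few reads, such as 2 to 6 reads of Epor per WT library.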
